A study of Homo sapiens with 16 samples.

Results

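Messenger RNA of 8 transcription factor genes known from the midbrain and hindbrain was followed in H9 human embryonic stem cells (hESCs) during cortical neural differentiation, with and without Thiamet-G (TMG). The genes were EN1, EN2, PAX2, PAX5, PAX8, GBX2, IRX3 and LMX1B, chosen by name for their roles in the embryo, with earlier results of these data known, out of 57736 genes in the count table. H9 is an established hESC line, so all libraries come from 1 genetic background. TMG inhibits O-GlcNAcase, the enzyme that removes the sugar O-GlcNAc from serine and threonine residues of proteins. Cells were taken undifferentiated (day 0, D0) and on days 12 (D12), 30 (D30) and 70 (D70) of differentiation by dual SMAD inhibition. Control cells received the solvent DMSO and TMG cells received 40 µM TMG, at D0 as well as throughout differentiation. Each of the 8 groups had 2 libraries, called replicates 1 and 2, which the study describes as biological replicates.

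In the embryo, the boundary between midbrain and hindbrain is an organizing centre called the isthmus, which secretes WNT1 and FGF8. OTX2 marks the neural tube in front of it and GBX2 the hindbrain behind it, and PAX2, PAX5, PAX8, EN1, EN2 and LMX1B act in the network that sets up and maintains the boundary. IRX3 is expressed in broad domains of the neural tube, and LMX1B also takes part in the formation of midbrain dopaminergic and hindbrain serotonergic neurons. Dual SMAD inhibition without added patterning factors is used to give forebrain cells. Most of these genes are known from other tissues too: PAX5 from B cells, PAX8 from thyroid and kidney, PAX2 from kidney, EN1, LMX1B and IRX3 from limb or other mesenchyme, and GBX2 from pluripotent cells.

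Promoter windows are shown for the 3 genes that fell together on leaving the undifferentiated state, GBX2, PAX8 and PAX5, and for LMX1B, which rose. Each is the 250 bases before the annotated start, from RefSeq on GRCh38.p14, of which 6 of the 8 genes had an entry in the table used. Positions are those of the same bases in GRCh37, the build of the counts: GBX2 chr2:237077030-237077279 (minus strand), PAX8 chr2:114036499-114036748 (minus strand), PAX5 chr9:37034266-37034515 (minus strand) and LMX1B chr9:129375957-129376206 (plus strand). Sequences run 5′ to 3′ along the gene, with capitals on matches, on either strand, to the CCAAT box, the TATA box (TATAAA), the GC box (GGGCGG) and the E-box (CACGTG). The octamer ATGCAAAT and the homeodomain core TAATTA were searched as well and had no match in these windows.
GBX2: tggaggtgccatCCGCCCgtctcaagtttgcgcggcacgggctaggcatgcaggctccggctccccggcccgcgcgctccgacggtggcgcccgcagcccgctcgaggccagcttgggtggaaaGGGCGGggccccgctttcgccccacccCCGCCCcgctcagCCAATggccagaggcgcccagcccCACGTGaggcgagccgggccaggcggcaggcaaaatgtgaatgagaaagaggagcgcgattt
PAX8: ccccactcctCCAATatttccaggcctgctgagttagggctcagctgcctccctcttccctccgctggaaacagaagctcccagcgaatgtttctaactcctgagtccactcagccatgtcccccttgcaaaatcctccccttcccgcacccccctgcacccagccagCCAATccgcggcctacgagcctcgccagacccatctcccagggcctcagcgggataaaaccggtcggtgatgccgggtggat
PAX5: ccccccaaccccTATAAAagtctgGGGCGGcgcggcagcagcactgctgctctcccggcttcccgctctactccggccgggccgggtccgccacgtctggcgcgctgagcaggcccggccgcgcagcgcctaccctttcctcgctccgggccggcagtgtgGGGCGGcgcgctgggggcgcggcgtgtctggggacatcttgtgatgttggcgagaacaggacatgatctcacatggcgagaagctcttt
LMX1B: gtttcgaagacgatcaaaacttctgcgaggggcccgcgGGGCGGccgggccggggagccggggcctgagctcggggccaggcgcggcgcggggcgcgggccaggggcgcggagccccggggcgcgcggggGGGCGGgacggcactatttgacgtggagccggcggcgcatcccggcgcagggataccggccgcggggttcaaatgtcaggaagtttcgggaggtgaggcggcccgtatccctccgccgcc

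The 3 windows of the genes that fell shared no motif of the 6. The GBX2 window held 3 GGGCGG, 1 CCAAT and 1 CACGTG, and that of PAX8 held 2 CCAAT. The PAX5 window held 2 GGGCGG and 1 TATAAA, whose first base lay 238 bases before the start. The LMX1B window held 2 GGGCGG. No matches overlapped each other. Of 35116 promoter windows of this length, 42.64% held GGGCGG, 32.01% CCAAT, 10.72% TATAAA, 6.34% CACGTG, 4.35% TAATTA and 1.63% ATGCAAAT. CpG dinucleotides numbered 28 in the GBX2 window, 11 in PAX8, 27 in PAX5 and 38 in LMX1B, against a median of 11 over all windows, and 96.7% of windows had fewer than LMX1B. A match here is a description of letters and not a binding site.

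Library totals ranged from 10334908 to 19836878 counts, so that 3 counts corresponded to between 0.147 and 0.291 CPM (counts relative to library size, scaled by the TMM method of edgeR), which is the upper limit that a count of 0 allows for counting error alone. All 8 genes were among the 24249 genes that passed the filter on low counts. EN1 passed through 3 libraries with 10 or more counts and was at 0 in 5 libraries, PAX2 reached 10 counts in 7 libraries, and LMX1B in all 16. In 8 libraries, the treatment tag of the record goes against the title. The groups used here follow the titles, which match the sample descriptions and the column names. OCT4 (POU5F1), which marks undifferentiated cells, was at 825 to 893 CPM in the 4 D0 libraries and at or below 9.13 CPM in the other 12. PAX6, a forebrain and neural progenitor factor, was at 246 CPM or more in 11 of the 12 libraries from D12 on and at 2.50 CPM in D70 TMG replicate 2.

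There were 3 libraries that stood apart in mesenchymal genes: D30 TMG replicate 2, D70 control replicate 2 and D70 TMG replicate 2. The summed level of 10 mesenchyme genes (COL1A1, COL1A2, COL3A1, LUM, DCN, TWIST1, PRRX1, FOXC1, FOXC2 and PDGFRA) was 30320, 45480 and 59500 CPM in them, and 7492 CPM in the next highest library, D70 control replicate 1. All 10 were detected in each of the 3 libraries, and 8 of the 10 were higher in these 3 than in any of the other 13. DCN, a proteoglycan of connective tissue, was at 382, 492 and 598 CPM in them and at most 50.9 CPM elsewhere. Results that rest on these libraries are given with and without them below. The comparison without them was chosen after the data were seen.

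Across the 4 stages of control cells, GBX2, PAX8 and PAX5 were highest at D0 and fell by D12, whereas LMX1B rose from D0 to D12. These 4 of the 8 genes passed a false discovery rate of 5% between D0 and D12 in edgeR's quasi-likelihood test, where 16.7% of all genes tested did (6.97% higher and 9.71% lower). The same 4 genes passed between D0 and D30, against 30.6% of all genes. PAX8, GBX2 and LMX1B passed between D0 and D70, against 29.8%. None of the 8 passed between D12 and D30 (3.60% of all genes), between D30 and D70 (0.384%) or between D12 and D70 (11.1%). At an unadjusted p under 0.05, PAX8 was lower at D30 than at D12 (10.6% of all genes were lower), PAX8 and IRX3 were higher at D70 than at D30 (10.8%), and PAX5 was higher at D70 than at D12 (16.4%). DESeq2 called 0 (12.7% of all genes with an adjusted p in DESeq2, as for each share given for it), 1 (IRX3, 8.38%) and 1 (PAX5, 19.5%) in these 3 comparisons, where PAX2 had no adjusted p in the first and second. The PAX5 difference rested on D70 control replicate 2, with a log2 fold change of 2.76 (adjusted p = 0.096, edgeR) with it and -0.10 (adjusted p = 0.96) without it. In TMG cells GBX2, PAX8, PAX5 and LMX1B passed between D0 and each later stage in edgeR's test, against 16.4% of all genes at D12, 27.7% at D30 and 29.0% at D70. DESeq2 added EN1 at D30 (32.6% of all genes) and IRX3 at D70 (34.0%) to these. The EN1 call rested on D30 TMG replicate 2. In edgeR, where EN1 did not pass, its log2 fold change was 7.93 (adjusted p = 0.087) with both D30 TMG libraries. Without D30 TMG replicate 2 it was 2.405. The IRX3 log2 fold change was 2.79 (adjusted p = 0.14, edgeR) with both D70 TMG libraries and 1.74 (adjusted p = 0.41) without D70 TMG replicate 2.

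Leaving out the 3 libraries high in mesenchyme genes left 1 library in each of D30 TMG, D70 control and D70 TMG, which was assumed to vary like the other groups. Under that assumption edgeR's test passed LMX1B from D12 to D70 in control cells (log2 fold change -2.86, adjusted p = 0.024; 24.8% of all genes). In TMG cells it passed PAX5 (-5.97, adjusted p = 0.047) and LMX1B (-2.72, adjusted p = 0.036) from D12 to D70 (14.3%). IRX3 from D12 to D30 in TMG cells (5.12%) turned from 0.58 with all libraries (adjusted p = 0.88) to -3.64 (adjusted p = 0.035).

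**Figure D1:**
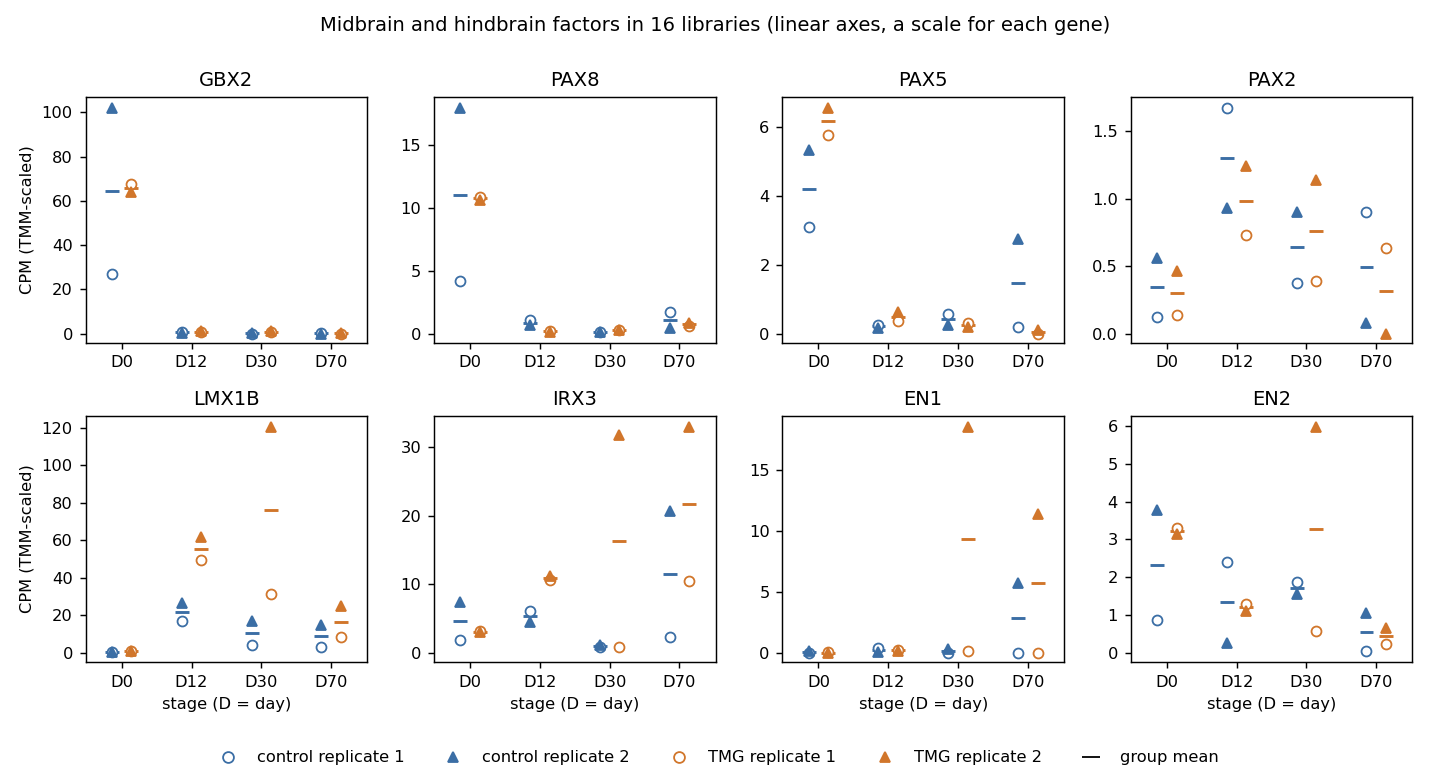
Level of each of the 8 genes in CPM (TMM-scaled, linear axis with its own scale for each gene) by stage, with control libraries in blue, TMG libraries in orange, replicate 1 as open circles, replicate 2 as filled triangles and the group mean as a bar. GBX2, PAX8 and PAX5 are highest at D0, LMX1B from D12 on, and the high points of EN1 (18.5, 5.71 and 11.4 CPM) are replicate 2 of D30 TMG, D70 control and D70 TMG.

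Compared per kilobase of the canonical transcript, the order of the genes in control cells changed with the stage. At D0, GBX2 led with 30.1 ± 24.8 CPM per kb (SD, n = 2), followed by PAX8 with 2.72 ± 2.40 and IRX3 with 1.78 ± 1.52, whose replicates overlapped, as did those of EN2 (0.684 ± 0.607) and PAX5 (0.483 ± 0.181). LMX1B (0.114), PAX2 (0.0815) and EN1 (0.0288) were lowest. At D12, LMX1B led with 3.45 ± 1.05 CPM per kb, followed by IRX3 with 2.04 ± 0.431, and the other 6 genes were at or below 0.395. At D70, the leading genes were IRX3 with 4.40 ± 4.97, LMX1B with 1.43 ± 1.36 and EN1 with 1.18 ± 1.67, with an SD close to or above the mean in each, so that these 3 were not separated.

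GBX2 (ENSG00000168505, chr2:237073879-237077029, minus strand, GRCh37), the hindbrain-side partner of OTX2, was at 27.0 and 102 CPM in control cells at D0, replicates 1 and 2 in this order here and below. It was at 0.639 and 0.329 CPM at D12, 0 and 0.151 at D30, and 0.193 and 0 at D70. All D0 libraries were above all later ones, although the D0 control replicates differed widely from each other. The log2 fold change from D0 to D12 was -7.02 ± 0.93 (SE; adjusted p = 0.0016, edgeR quasi-likelihood test with Benjamini-Hochberg adjustment), and this call held when any 1 library of the comparison was left out, with log2 fold changes from -7.66 to -5.77. At D30 and D70 the control libraries held 3 GBX2 counts per stage, and the D0 level was 633-fold that of D30 (95% counting interval 216 to 3074) and 580-fold that of D70 (198 to 2814). These intervals leave out the spread between the D0 replicates. Without D0 control replicate 2, the higher of them, the fitted log2 fold change was -8.05 in place of -9.29 at D30 and -7.90 in place of -9.15 at D70. All 3 counts of either stage were in 1 library, and leaving that one out set the group to 0 counts, with fitted values of -12.9 that depend on the prior count. TMG cells took the same course, with 67.7 and 63.9 CPM at D0 and 0.468 and 1.06 at D12 (log2 fold change -6.44 ± 0.90, adjusted p = 0.0019, edgeR). The gene overlaps the antisense GBX2-AS1, which had at most 15 counts in a library. The kit named in the study's methods does not mark strand, so reads from bases common to both RNAs cannot be told apart by strand. The overlap is one of gene spans, and shared exons were not examined.

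PAX8 (ENSG00000125618, chr2:113973574-114036498, minus strand), a paired-box factor of the early isthmus, thyroid and kidney, was at 4.14 and 17.9 CPM in control cells at D0 and at 1.08 and 0.657 at D12. It was at 0.0940 and 0.151 CPM at D30 and at 1.74 and 0.402 at D70. The D0 libraries did not overlap with any later one. From D0 to D12 the log2 fold change was -3.65 ± 0.74 (adjusted p = 0.0095, edgeR). This call was lost when D0 control replicate 2 or either D12 control library was left out, each time with 1 library left in that group. As each library was left out, the log2 fold change ran from -4.32 to -2.24. The D70 comparison with D0 (-3.33 ± 0.74, adjusted p = 0.0074, edgeR) lost its call without D0 control replicate 2. Its log2 fold change ran from -4.75 to -1.92 as each library was left out. The difference from D30 to D70 was 3.002 ± 0.906 on the log2 scale and did not pass (adjusted p = 0.13, edgeR). In TMG cells PAX8 was at 10.8 and 10.6 CPM at D0, 0.208 and 0.124 at D12, 0.291 and 0.284 at D30, and 0.632 and 0.832 at D70. The D12 change from D0 was -5.93 ± 0.87 on the log2 scale there (adjusted p = 0.0023, edgeR). PAX8-AS1, an antisense RNA that overlaps PAX8 over most of its length, was at 2.60 and 12.1 CPM in the D0 control libraries and at 8.03 and 9.69 in the D0 TMG libraries, and at or below 1.03 CPM in every later library. For this pair, too, reads from bases common to both RNAs cannot be told apart by strand, and their levels may share reads. Shared exons were not examined here either.

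PAX5 (ENSG00000196092, chr9:36833266-37034265, minus strand), the B-cell and isthmic paired-box factor, was at 3.09 and 5.32 CPM in control cells at D0 and at 0.246 and 0.164 at D12. It was at 0.564 and 0.251 CPM at D30 and at 0.193 and 2.74 at D70. D70 control replicate 2 was thus just below the lower D0 control library, while its partner was among the low values. The log2 fold change was -4.29 ± 0.99 from D0 to D12 (adjusted p = 0.016, edgeR) and -3.41 ± 0.96 from D0 to D30 (adjusted p = 0.021). Without D0 control replicate 2, D12 control replicate 1 or D12 control replicate 2, the adjusted p of the D12 comparison was 0.0673, 0.110 and 0.112. That of the D30 comparison was 0.0908 without D0 control replicate 2, 0.0748 without D30 control replicate 1 and 0.147 without D30 control replicate 2. From D0 to D70 it was -1.54 ± 0.85 (adjusted p = 0.19, edgeR) with both D70 control libraries, and -4.38 (adjusted p = 0.0063) without D70 control replicate 2. TMG cells were at 5.76 and 6.54 CPM at D0, 0.364 and 0.621 at D12, 0.291 and 0.189 at D30, and 0 and 0.0925 at D70. Their log2 fold change from D0 was -3.63 ± 0.93 at D12 (adjusted p = 0.023, edgeR), and the adjusted p was 0.0906, 0.0987, 0.174 and 0.102 without replicate 1 or 2 of D0 TMG or replicate 1 or 2 of D12 TMG, respectively. At D30 it was -4.63 ± 1.05 (adjusted p = 0.0088, edgeR), with 0.0544 and 0.0627 without replicate 1 or 2 of D30 TMG. Of the B-cell genes, MS4A1, VPREB1 and CD22 were at 0 in D70 control replicate 2, and EBF1, a B-cell factor that is also expressed in mesenchyme, was at 25.0 CPM there.

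PAX2 (ENSG00000075891, chr10:102495153-102589701, plus strand), the earliest of the 3 paired-box factors at the isthmus, did not exceed 1.67 CPM in any library. Control cells were at 0.124 and 0.560 CPM at D0, 1.67 and 0.931 at D12, 0.376 and 0.903 at D30, and 0.900 and 0.0805 at D70. The D12 control libraries lay above those of D0, as did 33.4% of all genes tested, with a log2 fold change of 1.93 ± 1.17 that did not pass (adjusted p = 0.28, edgeR). The 8 TMG libraries lay between 0 and 1.24 CPM.

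**Figure D2:**
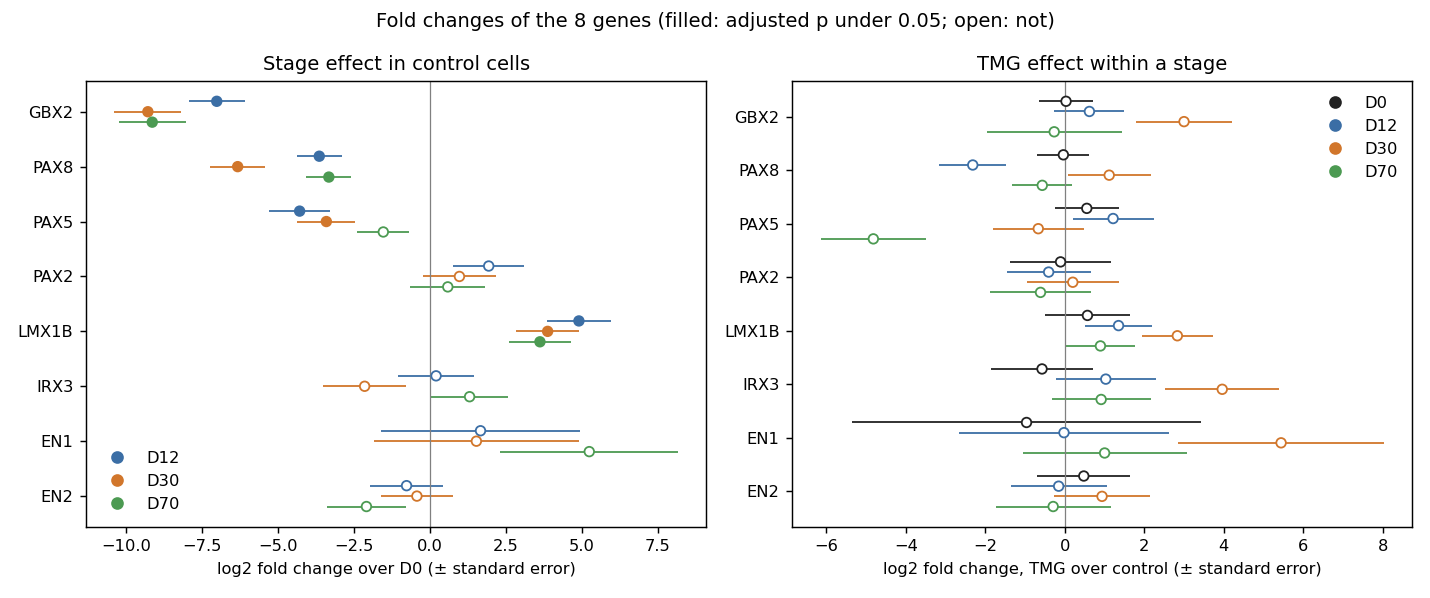
Log2 fold changes of the 8 genes with standard errors (horizontal bars, edgeR), over D0 in control cells for D12, D30 and D70 (left) and for TMG over control at each stage (right), with filled points where the adjusted p was under 0.05. GBX2, PAX8 and PAX5 lie to the left of 0 and LMX1B to the right in the stage panel, and every point of the TMG panel is open.

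LMX1B (ENSG00000136944, chr9:129376207-129463311, plus strand), a LIM-homeodomain factor of the isthmus, the roof plate and dopaminergic and serotonergic progenitors, was at 0.742 and 0.699 CPM in control cells at D0. It was at 17.1 and 26.5 CPM at D12, 4.04 and 17.1 at D30, and 2.96 and 15.1 at D70. All later control libraries were above both D0 libraries, and the D12 libraries lay above those of D70 and, by a margin lost in rounding, above those of D30. The log2 fold change from D0 was 4.90 ± 1.06 at D12 (adjusted p = 0.012, edgeR), 3.87 ± 1.03 at D30 (adjusted p = 0.017) and 3.62 ± 1.03 at D70 (adjusted p = 0.023). The adjusted p of the D12 comparison was 0.0939 without D0 control replicate 1, 0.0848 without D0 control replicate 2 and 0.0549 without D12 control replicate 2. The D30 call was lost when either D0 control library or D30 control replicate 2 was left out. Its log2 fold change ran from 2.47 to 4.55 as each library was left out. The D70 call was lost when either D0 control library was left out, and without D70 control replicate 2, at a log2 fold change of 2.03. It was also lost without the 3 libraries high in mesenchyme genes. In TMG cells LMX1B was at 0.892 and 1.24 CPM at D0, 49.7 and 61.5 at D12, 31.6 and 120.2 at D30, and 8.30 and 25.1 at D70. From D0 to D12 the TMG libraries rose by 5.68 ± 1.06 on the log2 scale (adjusted p = 0.0065, edgeR), with an adjusted p of 0.0786 or 0.0661 when replicate 1 or 2 of D0 TMG was left out.

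IRX3 (ENSG00000177508, chr16:54317216-54320699, minus strand), an Iroquois homeodomain factor of the neural tube, was at 1.85 and 7.48 CPM in control cells at D0, 6.14 and 4.54 at D12, 0.846 and 1.204 at D30, and 2.31 and 20.8 at D70. The D30 control libraries lay below all other control libraries. The log2 fold change was -2.35 ± 1.37 from D12 to D30 (adjusted p = 0.37, edgeR) and 3.46 ± 1.41 from D30 to D70 (adjusted p = 0.23). Without the 3 libraries high in mesenchyme genes the first of these passed (log2 fold change -2.31, adjusted p = 0.023, edgeR; 16.5% of all genes passed), and the second was 1.13 (adjusted p = 0.33). In TMG cells IRX3 was at 3.16 and 3.09 CPM at D0, 10.7 and 11.2 at D12, 0.874 and 31.7 at D30, and 10.4 and 32.9 at D70.

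The 2 Engrailed genes, which maintain the midbrain and anterior hindbrain downstream of the PAX genes, differed from each other. EN1 (ENSG00000163064, chr2:119599747-119605224, minus strand) was at or below 0.393 CPM in 13 libraries and at 18.5, 5.71 and 11.4 CPM in D30 TMG replicate 2, D70 control replicate 2 and D70 TMG replicate 2. These are the libraries that stood apart in mesenchyme genes. Its partner libraries at D30 TMG, D70 control and D70 TMG were at 0.194, 0 and 0 CPM. EN2 (ENSG00000164778, chr7:155250824-155257526, plus strand) was at 0.865 and 3.78 CPM in control cells at D0, 2.41 and 0.274 at D12, 1.88 and 1.56 at D30, and 0.0643 and 1.05 at D70. The D0 and D12 control libraries of EN2 overlapped (log2 fold change -0.77 ± 1.19, adjusted p = 0.70, edgeR). TMG libraries of EN2 were at 3.29 and 3.14 CPM at D0, 1.30 and 1.12 at D12, 0.583 and 5.96 at D30, and 0.237 and 0.647 at D70. The highest EN2 value was again that of D30 TMG replicate 2.

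EN1 and IRX3 were the 2 of the 8 genes for which all 3 of these libraries exceeded all of the other 13, a pattern shown by 641 genes or 2.64% of those tested. EN1 passed the filter on low counts through these same 3 libraries, so that share says nothing about it. In IRX3 the margin was wide, with 20.8, 31.7 and 32.9 CPM against at most 11.2 CPM. LMX1B did not follow it, since D70 control replicate 2 and D70 TMG replicate 2 were at 15.1 and 25.1 CPM and both D12 TMG libraries were at 49.7 CPM or more. Among genes of the other lists, FGF18, SIM1, IRX5, SIX2 and EBF1 showed the same pattern. In bulk RNA, more cells of a type and more RNA per cell cannot be told apart. The part of mesenchymal cells in the EN1 and IRX3 levels was not tested.

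**Figure D3:**
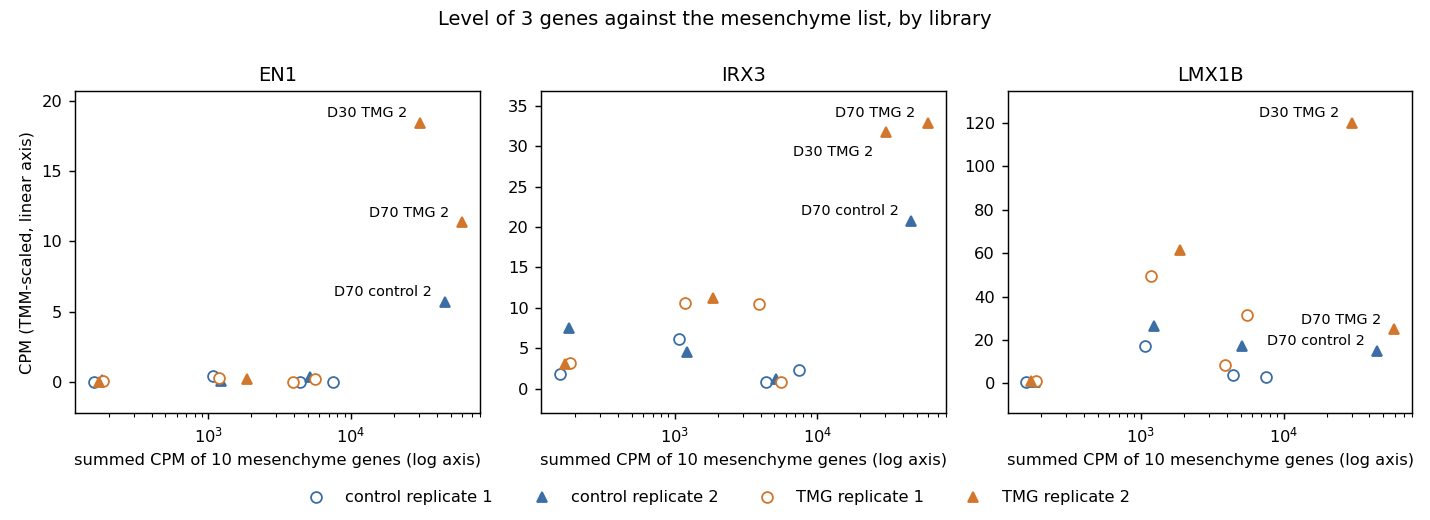
Level of EN1, IRX3 and LMX1B in CPM (linear axis) against the summed CPM of 10 mesenchyme genes (log axis) in each of 16 libraries, with control in blue, TMG in orange, replicate 1 open and replicate 2 filled. The 3 labelled libraries, at 30320 to 59500 summed CPM, hold the highest EN1 and IRX3 values, while LMX1B also reaches 61.5 CPM at a low mesenchyme sum.

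The comparison of TMG with control within a stage asked whether sustained O-GlcNAc changed these genes. None of the 8 passed at D0, D12, D30 or D70 in edgeR's test, and 0 of the 24249 genes (0%) passed at any single stage. That test shares its estimate of the spread over all stages. The biological coefficient of variation between replicates was 0.192 at D0 and 0.622 at D70. With a block for the replicate number within each stage, LMX1B passed at D30, as given below. At an unadjusted p under 0.05 there were 0 of the 8 at D0 (1.26% of all genes), PAX8 lower in TMG at D12 (0.936% lower), GBX2, IRX3 and LMX1B higher at D30 (7.10% higher) and PAX5 lower at D70 (2.88% lower). DESeq2 gave PAX2 no adjusted p at D30 and D70, and called 0 of the 8 at D0 (0.0206%), 0 at D12 (0.0454%), IRX3 and LMX1B at D30 (3.13%) and 0 at D70 (0.296%). Higher values in both TMG libraries than in both control libraries were found for PAX5 and LMX1B at D0 (19.7% of all genes), PAX5, IRX3 and LMX1B at D12 (17.8%), PAX8, GBX2 and LMX1B at D30 (23.1%) and none at D70 (9.77%). Lower values in both TMG libraries were found for PAX8 at D12 (16.5%) and PAX5 at D70 (12.4%).

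LMX1B had the most regular difference, with both TMG libraries above both controls at D0, D12 and D30. At D70 the groups overlapped, but each TMG library was above the control library of the same replicate number. The log2 fold change of TMG over control was 0.57 ± 1.07 at D0, 1.35 ± 0.85 at D12, 2.83 ± 0.90 at D30 and 0.89 ± 0.86 at D70. The adjusted p was 1.0, 1.0, 0.27 and 0.95 (edgeR). In counts, the 2 libraries of a group summed to 1946 for TMG and 832 for control at D12, and to 1595 and 383 at D30, so that counting error was small beside the spread between replicates. Averaged over the 4 stages the log2 fold change was 1.41 ± 0.46, with an unadjusted p of 0.011 (5.85% of all genes were higher at a p under 0.05) and an adjusted p of 0.29 (edgeR). DESeq2 on the 16 libraries put LMX1B past the threshold at D30 (2.86, adjusted p = 0.032) and for the mean of the stages (1.43, adjusted p = 0.043; 2.51% of all genes passed), and DESeq2 on the 4 libraries of D12 did so at that stage (1.34, adjusted p = 0.010; 0.567% of all genes). In edgeR, a block for the replicate number within each stage did so at D30 (adjusted p = 0.020) and for the mean of the stages. The shares of all genes are given below, and nothing ties these numbers to a common culture. Over these and the other alternatives the adjusted p at D30 ran from 0.020 to 1.0. The D30 difference was 4.23 without D30 control replicate 2, 1.56 without D30 TMG replicate 2, the library at 120.2 CPM, and 1.51 without the 3 libraries high in mesenchyme genes. At D70 the difference was -0.10 without D70 TMG replicate 2. The difference between consecutive stages in the TMG effect was tested for all 8 genes, and none of 24 tests passed (lowest unadjusted p = 0.028, adjusted p = 1.0, edgeR).

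Neural crest genes are given beside LMX1B, since their levels at D12 were also higher in both TMG libraries than in both control libraries when summed. The summed level of 9 of them (SOX10, FOXD3, TFAP2A, TFAP2B, PAX3, PAX7, SNAI2, ETS1 and ERBB3) was 440.8 and 605.2 CPM in the D12 control libraries and 684.7 and 1395 CPM in the D12 TMG libraries, with none of the 9 at 0. All 9 had a positive log2 fold change of TMG over control at D12, with a median of 1.32 against 0.0028 over all genes tested, and none passed. At D30 the same sum was 86.7 and 129.2 CPM in control and 242.7 and 355.4 CPM in TMG libraries, with 2 of the 9 at 0 in D30 control replicate 1. At D0, where both TMG libraries were also higher in LMX1B, 4 of the 9 had a positive log2 fold change (median -0.016). At D70, where the LMX1B groups overlapped, the sum was 24.9 and 159.0 CPM in control and 188.2 and 460.2 CPM in TMG libraries. The part of neural crest cells in the LMX1B levels was not tested.

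The other differences under TMG did not pass in edgeR's test, and most of the larger ones rested on low counts or on 1 library. IRX3 was 1.03 ± 1.25 higher on the log2 scale at D12 (adjusted p = 1.0, edgeR), with 10.7 and 11.2 CPM against 6.14 and 4.54 and no overlap. At D30 its log2 fold change was 3.96 ± 1.44 (adjusted p = 0.32, edgeR), and -0.25 without D30 TMG replicate 2. At D70 it was 0.91 ± 1.25 (adjusted p = 0.95), and -0.13 without D70 TMG replicate 2. The EN1 difference at D30 was 5.44 ± 2.60 (adjusted p = 0.44, edgeR) and -0.092 without D30 TMG replicate 2. At D70 it was 1.00 ± 2.06 (adjusted p = 0.97), and ran from -8.44 to 9.45 as each D70 library was left out. EN2 at D30 stood at 0.93 ± 1.201 (adjusted p = 0.82), and at -1.54 without D30 TMG replicate 2.

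Among the genes high at D0, GBX2 and PAX8 had no TMG difference beyond the spread of the replicates in the undifferentiated cells. The GBX2 log2 fold change at D0 was 0.03 ± 0.68 and that of PAX8 was -0.04 ± 0.65, whereas the control replicates spanned 27.0 to 102 and 4.14 to 17.9 CPM. As each D0 library was left out, these ran from -0.60 to 1.29 for GBX2 and from -0.71 to 1.38 for PAX8. PAX5 was at 5.76 and 6.54 CPM in TMG cells at D0, above 3.09 and 5.32 in control (log2 fold change 0.55 ± 0.81, adjusted p = 1.0, edgeR). After D0 these genes were low in most libraries, and the highest value was 2.74 CPM, for PAX5 in D70 control replicate 2. PAX8 at D12 was at 0.208 and 0.124 CPM in TMG against 1.08 and 0.657 CPM in control cells, from 6 and 34 counts (log2 fold change -2.32 ± 0.85, unadjusted p = 0.019, adjusted p = 1.0, edgeR). GBX2 at D30 had 17 counts in TMG and 3 in control libraries, a ratio of 8.30 (95% counting interval 2.40 to 44.2, without the spread between replicates), and its fitted log2 fold change was 2.997 ± 1.203 (adjusted p = 0.36, edgeR). As each D30 library was left out, this fold change ran from 2.37 to 6.60. Of 10 undifferentiated stem cell genes, 5 were higher in TMG at D30 at an unadjusted p under 0.05 (edgeR; 7.10% of all genes). Their median log2 fold change was 1.04, and 1.49 without D30 TMG replicate 2. The part of undifferentiated cells in the GBX2 level was not tested. PAX5 at D70 had 1 count in TMG and 37 in control libraries, a ratio of 0.0322 (0.000795 to 0.191), and D70 control replicate 2 alone held most of the control level. The fitted log2 fold change was -4.82, and -1.96 without that library.

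The genes whose log2 CPM over the 16 libraries was most like that of each member, by Pearson's r as a description, differed among the 8. For LMX1B these were LMX1B-DT (0.969), ITGA8, an integrin subunit (0.945), and DLC1, a GTPase-activating protein (0.941). LMX1B-DT (ENSG00000224842, chr9:129351873-129375979, minus strand) is a non-coding RNA transcribed away from LMX1B, with a start 228 bases from that of LMX1B, so that the LMX1B window printed above takes in the start of LMX1B-DT. It was at 0 CPM in both D0 control libraries, 0.590 and 0.547 in control and 0.831 and 1.55 in TMG libraries at D12, and 0.188 and 0.552 in control and 1.26 and 3.22 in TMG libraries at D30. Its D30 log2 fold change of TMG over control was 2.48 ± 0.70 (adjusted p = 0.24, edgeR).

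For GBX2 the most similar genes were SNX5 (0.984), HMX2 (0.969) and SEMA6A (0.968), and for PAX8 they included PAX8-AS1 (0.975) and NANOGP8 (0.946). For PAX5 they were FGF19, a secreted FGF (0.935), LRRCC1 (0.933) and SCGB3A2 (0.929). All 8 named here were higher in every D0 library than in any later one. For EN1 they were CEMIP (0.956), DNM3OS (0.954) and MMP19 (0.949), each highest in the 3 libraries that stood apart. For IRX3 they were NDST3 (0.925), DLX5 (0.920) and its neighbour in the Iroquois family, IRX5 (0.919). EN2 was most like CTD-2105E13.13 (0.871), SIX4 (0.808) and ADRA1D (0.792), and PAX2 most like ISYNA1 (0.887), ID3 (0.879) and DZIP1L (0.874). The libraries share stages and depth, and 4 stages dominate these values.

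Other genes of the isthmus and its surroundings were counted by list. From D0 to D12 in control cells, of 19 isthmic signals and their feedback genes, 3 rose and 6 fell (median log2 fold change -0.21), of 17 tested midbrain genes 5 rose and 1 fell (median 1.75), and of 18 tested hindbrain genes 2 rose and 1 fell (median -0.13), beside a median of 0.0033 over all genes and -0.29 over the 8 factors. Of all genes tested, 6.97% rose and 9.71% fell. The 4 highest-expressed genes of the isthmic list included the receptors FGFR1, which fell (-1.24 ± 0.34, adjusted p = 0.032, edgeR), and FGFR2 (0.74 ± 0.48, adjusted p = 0.31), with the FGF modulators IL17RD (-0.21 ± 0.76) and SPRED1 (-0.29 ± 0.23). In the midbrain list the highest were OTX2 (2.18 ± 1.43, adjusted p = 0.32), OTX1, which rose (5.80 ± 0.97, adjusted p = 0.0041), LMX1A, which rose (adjusted p = 0.014), and LHX9 (2.64 ± 1.52, adjusted p = 0.26). In the hindbrain list they included ZIC1, which rose (3.36 ± 0.84, adjusted p = 0.022), GATA3, which rose (5.79 ± 0.98, adjusted p = 0.0044), and IRX2 (-0.93 ± 1.18).

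Some genes were singled out after their values were seen. LMX1A, the paralogue of LMX1B, was at 0.0618 and 0.210 CPM in control cells at D0 and at 172 and 216 at D12. It was at 2.25 and 1.02 CPM in replicate 2 of D70 control and of D70 TMG. Both are among the libraries high in mesenchyme genes, and its other D30 and D70 values are not given here. Over all 16 libraries the mean of LMX1A was 82.5 CPM and its highest value 264.9 CPM. WNT1, the isthmic and roof plate ligand, was at 29.6 and 118 CPM in control and 59.3 and 78.6 CPM in TMG libraries at D12, and at or below 17.8 CPM in all other libraries. FGF8, the other isthmic ligand, did not exceed 6.47 CPM in any library. SPRY4, ETV4 and DUSP6, feedback genes and targets of FGF signalling, fell from D0 to D12 in control cells, with log2 fold changes of -5.02 ± 0.58, -5.005 ± 0.462 and -2.56 ± 0.26 (adjusted p = 0.00086, 0.00027 and 0.00044, edgeR). FOXA2, the floor plate factor of dopaminergic progenitors, was at or below 0.462 CPM in every library, and HOXB1, HOXA2 and HOXA3 of the hindbrain did not exceed 0.412 CPM before D70. At D70, HOXB1 was at 0 in every library, while HOXA2 and HOXA3 were detected in both replicate 2 libraries.

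**Figure D4:**
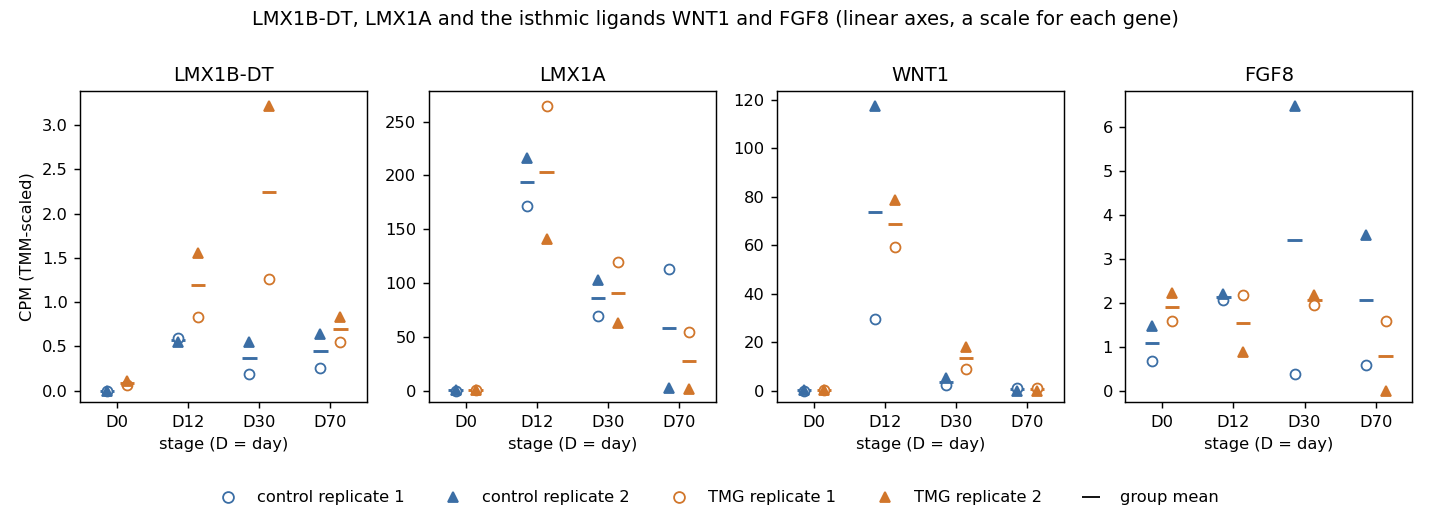
Level of LMX1B-DT, LMX1A, WNT1 and FGF8 in CPM (TMM-scaled, linear axis with its own scale for each gene) by stage, with control in blue, TMG in orange, replicate 1 open, replicate 2 filled and the group mean as a bar. LMX1A and WNT1 peak at D12, where WNT1 reaches 118 CPM, while FGF8 does not exceed 6.47 CPM and LMX1B-DT is highest at 3.22 CPM in D30 TMG replicate 2.

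Under TMG, none of the genes in these 3 lists passed at any stage in edgeR's test. At D30 the median log2 fold change of TMG over control was 1.97 over the 8 factors, 0.45 over the isthmic list, 0.55 over the midbrain list and 0.60 over the hindbrain list, beside 0.011 over all genes and 3.29 over the 10 mesenchyme genes. The median of the factors includes EN1 at 5.44. EN1 passed the filter on low counts only through 3 libraries, of which D30 TMG replicate 2 was the highest. The filter thus favoured a high median there, and its lead over other lists is not a result about the factors. Among other lists the D30 median was 1.89 over 6 kidney, otic and thyroid genes, 1.40 over 10 neural crest genes and 1.04 over 10 stem cell genes. It was 0.88 over 9 pan-neuronal genes and 0.84 over 11 roof plate and choroid plexus genes. Forebrain factors had a median of -0.69 (19 genes) and B-cell genes of -2.37 (3 genes). At an unadjusted p under 0.05, 3 of 8 factors, 3 of 19 isthmic, 4 of 17 midbrain and 2 of 18 hindbrain genes were higher at D30, beside 7.10% of all genes, and 2 isthmic genes were lower, beside 4.89%. Without D30 TMG replicate 2 the medians were -0.17, 0.31, 0.47 and 0.21, in the same order, beside 0.45 over the mesenchyme genes, and 0, 1, 2 and 0 genes were higher at that p (2.15% of all genes). Without the 3 libraries high in mesenchyme genes the median was -0.30 over the 7 factors that were then tested. At D12 the medians were 0.30, -0.13, 0.05 and 0.51, with 1, 0, 0 and 0 genes under that p in either direction (2.48% of all genes). WNT1 and LMX1A, which shared the D12 rise with LMX1B, had log2 fold changes of TMG over control at D30 of 1.85 ± 1.08 (adjusted p = 0.53, edgeR) and 0.08 ± 1.39 (adjusted p = 0.99).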

How the data were processed

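RNA-seq of 16 libraries of H9 cells covered 4 stages, each with 2 DMSO and 2 TMG libraries, grouped by their titles. Per the labels and the study's methods, ribosomal RNA was depleted, libraries were made with the NEBNext Ultra II RNA kit, and reads were aligned with Bowtie2 to hg19. The authors deposited estimated counts per Ensembl gene (GRCh37) from RSEM 1.2.12 as whole numbers, not normalized. This kit, as named, does not mark strand. How the counts were rounded and the strand setting of the counting are not given in the sources used here.

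The expected counts were taken as whole numbers. Genes were filtered with filterByExpr (minimum count 10, minimum total 15), leaving 24249 of 57736, and tested with edgeR 4.0.16 (TMM, quasi-likelihood F-test) with 1 mean for each of 8 groups (8 residual degrees of freedom) at a false discovery rate of 5%, adjusted over all genes tested. P-values measure the spread between the 2 libraries of a group, pooled over all 8 groups, and not that of the compared stage alone. The biological coefficient of variation between replicates was 0.192 at D0, 0.242 at D12, 0.304 at D30 and 0.622 at D70. Tests at the earlier stages therefore take in the wider spread of D70. Standard errors were derived from the F statistic, and log2 CPM used a prior count of 2. Library totals are given with the results. Names were found for 55501 genes. The test was checked on simulated data.

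Named genes are the 8 factors, overlapping genes, for each factor the 3 genes with the highest Pearson correlation, and, for each list, genes past the threshold under TMG (none) and the 4 with the highest CPM. Some of these genes are not reported here. Members and lists were chosen with earlier results of these data known. Alternatives were DESeq2 1.42.0, RLE size factors, unfiltered genes, a block for the replicate number, fits to the 4 libraries of 1 stage, and leaving out libraries. R 4.3.3, Python 3.11.15, pandas 2.3.3 and matplotlib 3.10.9 were used.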

Additional observations from a re-analysis of the deposited data

How the results depend on the processing

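Of 55 fold changes of the 8 genes examined under 316 values from other tools, scalings, filters, blocks or without the 3 libraries high in mesenchyme genes, 289 kept their direction and their side of the threshold. The exceptions in direction were PAX8 at D0 under TMG (0.29 with the replicate block within stage), IRX3 from D12 to D30 in TMG cells (-0.16 with the additive replicate block) and, without those 3 libraries, EN2 (-1.57) and IRX3 (-0.30) at D30 under TMG, LMX1B (-0.83) and IRX3 (-3.64) from D12 to D30 in TMG cells and PAX5 from D12 to D70 in control cells (-0.076). The cause was not tested.

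The number of the 8 genes past the threshold under TMG was 1 at D12 with DESeq2 on 4 libraries (0.567% of all genes), in place of 0. It was 2 at D30 (3.13%) and 1 for the mean of the stages (2.51%) with DESeq2 on 16 libraries, in place of 0. DESeq2 also gave 1 in control cells from D30 to D70 (8.38%) and from D12 to D70 (19.5%) in place of 0. In TMG cells it gave 5 in place of 4 from D0 to D30 (32.6%) and from D0 to D70 (34.0%). Without the 3 libraries the count was 1 from D12 to D30 and 1 from D12 to D70 in control cells, and 1 and 2 in TMG cells, in place of 0. This leaves 1 library in D30 TMG, D70 control and D70 TMG, assumed to vary like the other groups. The shares of all genes without these libraries are given with the results.

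Replicate numbers are shared between arms but nothing ties them to a common culture. The correlation of replicate differences between the arms was 0.045 at D0, 0.37 at D12, 0.22 at D30 and 0.61 at D70. With the replicate number as 1 additive block no count changed. With a block within each stage, 1 of the 8 genes, LMX1B, passed under TMG at D30 (log2 fold change 2.88, adjusted p = 0.020, edgeR), with 0.961% of all genes in place of 0%, and for the mean of the stages (1.47, adjusted p = 0.024), with 0.272%.

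Leaving out 1 library at a time leaves 1 library in a group, assumed to vary like the other groups, and tests more genes. The count of genes past the threshold then ran from 1 to 3 from D0 to D12 in control cells, 2 to 3 from D0 to D30, 1 to 3 from D0 to D70, 0 to 1 from D12 to D70, and 2 to 3 from D0 to D12 in TMG cells. The count also fell in some of these fits from D0 to D30 and from D0 to D70 in TMG cells. Log2 fold changes whose direction turned ran, at D0 under TMG, from -0.71 to 1.38 for PAX8 and from -0.60 to 1.29 for GBX2. At D30 under TMG they ran from -0.092 to 10.11 for EN1, -1.54 to 1.80 for EN2 and -0.25 to 4.92 for IRX3, and at D70 from -8.44 to 9.45 for EN1, -0.13 to 3.24 for IRX3 and -0.10 to 2.51 for LMX1B. Between stages they ran from -3.01 to 0.63 for EN2 and -0.46 to 1.52 for IRX3 (D0 to D12, control), -4.75 to 8.38 for EN1 (D30 to D70, control), -0.10 to 3.67 for PAX5 (D12 to D70, control), and -0.82 to 1.11 for LMX1B and -3.63 to 1.54 for IRX3 (D12 to D30, TMG). With no filter the adjusted p of LMX1B from D0 to D70 was 0.082 in control and 0.057 in TMG cells, and from D0 to D30 it was 0.062 in control cells. Depth limits PAX2, EN1 at most stages, GBX2 after D0, and PAX5 and PAX8 in most libraries after D0. Exceptions include PAX5 in D70 control replicate 2 (2.74 CPM) and PAX8 in D70 control replicate 1 (1.74 CPM).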

Other observations

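The genes most like each factor changed with the measure. By Spearman's rank correlation over the 16 libraries, WNT10B (0.929) led for LMX1B, ahead of LMX1B-DT (0.926), and NDST3 (0.953) for IRX3. Over the 8 control libraries alone, the 3 genes most like LMX1B by Pearson's r were RPLP1P11 (0.994), AQP7P1 (0.983) and RN7SL449P (0.981), and PAX8-AS1 (0.987) was second for PAX8. Among the 8 factors themselves, GBX2 and PAX8 were the most alike pair over the 16 libraries (0.866), followed by GBX2 and PAX5 (0.805), and PAX8 and LMX1B the most opposed (-0.822).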
